A study of Homo sapiens with 4 samples.

Results

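The sites described here are the N6-methyladenosine (m6A) sites that lie just behind the stop codon, in the first 200 nt of the 3' UTR. A listed site was a member when it fell, on the same strand, in the 3' UTR of the Ensembl canonical transcript of a protein-coding gene with at least 2 exons, 1 to 200 nt (counted along the spliced mRNA) after the last base of the stop codon. Of 18789 listed sites, 3910 were members (20.8%, 95% Wilson interval 20.2 to 21.4). They made up 40.6% (39.6 to 41.6) of the 9636 listed sites in such 3' UTRs and lay in 2106 genes.

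The list came from miCLIP2 of polyadenylated RNA from untreated wild-type C643 cells, a human cell line established from anaplastic thyroid cancer. The 3 biological replicates of this 1 group gave 4 libraries, 2 of them technical libraries of replicate 1, and no control or METTL3-depleted sample of these cells was analysed here. In miCLIP2, RNA fragments are bound by an antibody against m6A and joined to it by ultraviolet light, the cDNA ends at the crosslink, and the trained classifier m6Aboost accepts or rejects peaks at adenosines, with a score between 0.5 and 1 for each accepted site. Since the replicates were pooled into 1 list of positions and scores, the read depth behind a site is unknown, and all intervals and tests cover variation between sites or genes and none between cultures.

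m6A is deposited on nascent mRNA by the METTL3-METTL14 methyltransferase complex, which prefers an adenosine followed by cytosine in the DRACH context (D is A, G or T, R is A or G, and H is A, C or T). Across mammalian mRNAs the mark is known to accumulate around stop codons and in long exons, and it is sparse next to exon junctions, where the exon junction complex sits. Reader proteins of the YTH family bind m6A, and in the cytoplasm its presence in a 3' UTR is best known for shortening the life of an mRNA.

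The highest scored site was taken from each of the 10 genes with the most members as an example. Since 39 genes tied at 5 members, the last 4 of the 10 are those of the tie with the highest sum of scores. The 21 nt around each site are given 5' to 3' from the spliced transcript, with the pentamer centred on the modified A in capitals and GRCh38 coordinates.
CDC42EP4 (chr17:73285302-73285322, minus strand): cagaccatGGACCctggacct
IER3 (chr6:30743816-30743836, minus strand): ggcaacttGAACTcagaacac
TEX264 (chr3:51704046-51704066, plus strand): ttgctgagGAACTgagcagac
RRP1 (chr21:43803941-43803961, plus strand): catcccagGAACTggaccttt
PSRC1 (chr1:109279946-109279966, minus strand): gaagacttAAACTctctgggt
FIZ1 (chr19:55592370-55592390, minus strand): ggacctcgGGACTgcgcgtga
MICALL2 (chr7:1434455-1434475, minus strand): cggcattcGGACTtggactcg
KRT80 (chr12:52171339-52171359, minus strand): agcaggagGGACTtaagctag
MARCHF9 (chr12:57758938-57758958, plus strand): tcagagaaGAACTctcatggc
IL4R (chr16:27363935-27363955, plus strand): gacttgaaGAACCatggtatg
DRACH surrounded each of these 10 sites, with GGACT in 3 genes and GAACT in 4. They were chosen by score, and sequence was an input of the score, so their motifs are not typical. Of all members 88.8% lay at DRACH and 9.74% at GAACT.

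In 38 members the modified A was the first base after the stop codon, and the stop codon itself supplies part of the motif. The 5 with the highest scores among these 38 are shown, so their scores are not typical, and the 65 members 1 or 2 nt after the stop codon had a median score of 0.806. Capitals mark the stop codon, and the modified A is the base right after it.
TIMM50 (chr19:39489811-39489831, plus strand): acagcccTGAactctgggcct
DDIT4 (chr10:72275179-72275199, plus strand): ggagtgtTGAacttcaacctg
RPL36AL (chr14:49618773-49618793, minus strand): ccagttcTAAactttgggata
MPV17L2 (chr19:18196046-18196066, plus strand): agcagacTGAactgtctgctt
HLX (chr1:220884695-220884715, plus strand): ctgcttaTAGactgtactagg
In TIMM50, DDIT4 and MPV17L2 a TGA stop codon was followed by ACT, so that its last bases completed the pentamer GAACT. TIMM50 is a subunit of the mitochondrial protein import machinery and DDIT4 an inhibitor of mTORC1 signalling. Their sites scored 1 and 0.962. The TAG stop codon of HLX, a homeobox gene, gave AGACT with a score of 0.943.

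Members were spread over the whole window, with a median distance of 92 nt and quartiles of 47 and 144 nt. From the stop codon outward, successive bins of 50 nt held 1067, 1048, 933 and 862 of them. The 2 strands held similar numbers, 1950 on plus and 1960 on minus. In all, 3895 members lay in the last exon of their transcript. The other 15, in 12 genes, lay before an exon junction within the 3' UTR, and the highest score among these was 0.916 in TRNP1. Several of these 12 genes had no gene symbol in the annotation. The coding sequence or 5' UTR of another annotated transcript also covered 159 members (4.07%), and 63 lay in the windows of more than 1 gene.

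How often a possible site was actually listed was measured with the DRACH motifs of the 3' UTRs of the 2726 genes that had a listed 3' UTR site. Within 200 nt of the stop codon 3474 of 10670 motifs were listed (32.6%, 31.7 to 33.5), against 11.5% of all 73718 motifs in these 3' UTRs. Farther away the share was 7.97% (7.76 to 8.18, 5025 of 63048 motifs). In the 2475 genes that had motifs in both regions, the odds of being listed were 3.96 times higher in the window (Mantel-Haenszel odds ratio stratified by gene, 95% interval 3.73 to 4.21). Against motifs 201 to 400 nt after the stop codon alone, a comparison added after the values were seen, the odds ratio was 1.96 (1.82 to 2.12).

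Inside the window the share varied over a small range. The 10 bins of 20 nt had between 28.8% and 35.9% of their motifs listed, the lowest at 181 to 200 nt and the highest at 21 to 40 nt. Motifs 1 to 100 nt after the stop codon were listed somewhat more often than those in the following 100 nt, 39.0% against 36.2% in genes with members and motifs in both, with an odds ratio of 1.14 (1.04 to 1.25, Cochran-Mantel-Haenszel chi-squared test over 1692 genes, p = 0.00504, adjusted p = 0.00756). This difference was not called with the longest transcript of each gene (odds ratio 1.10, chi-squared p = 0.0548). Beyond the window the share was 22.0% at 201 to 300 nt, 15.3% at 401 to 600 nt, 7.78% at 801 to 1000 nt and 1.65% past 2000 nt.

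Sites at both sides of the 200 nt edge are given by value only. At 196 to 200 nt there were 78 sites with a median score of 0.771, and 28.2% of the motifs were listed. At 201 to 205 nt there were 60 sites with a median score of 0.784, and 21.9% of the motifs were listed. On the coding side, over all 3639 genes with a listed site in their transcript, the share of DRACH motifs listed was 8.38% (7.0 to 9.99) at 181 to 200 nt before the stop codon and 25% (22.9 to 27.2) in the last 20 nt. In the same genes it was 26.4% (24.1 to 28.7) in the first 20 nt after the stop codon and 24.0% (21.6 to 26.6) at 181 to 200 nt after it. The neighbouring intervals on either side of the stop codon overlapped, and the shares on the 3' UTR side lay between 23.8% and 28.1%.

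**Figure D1:**
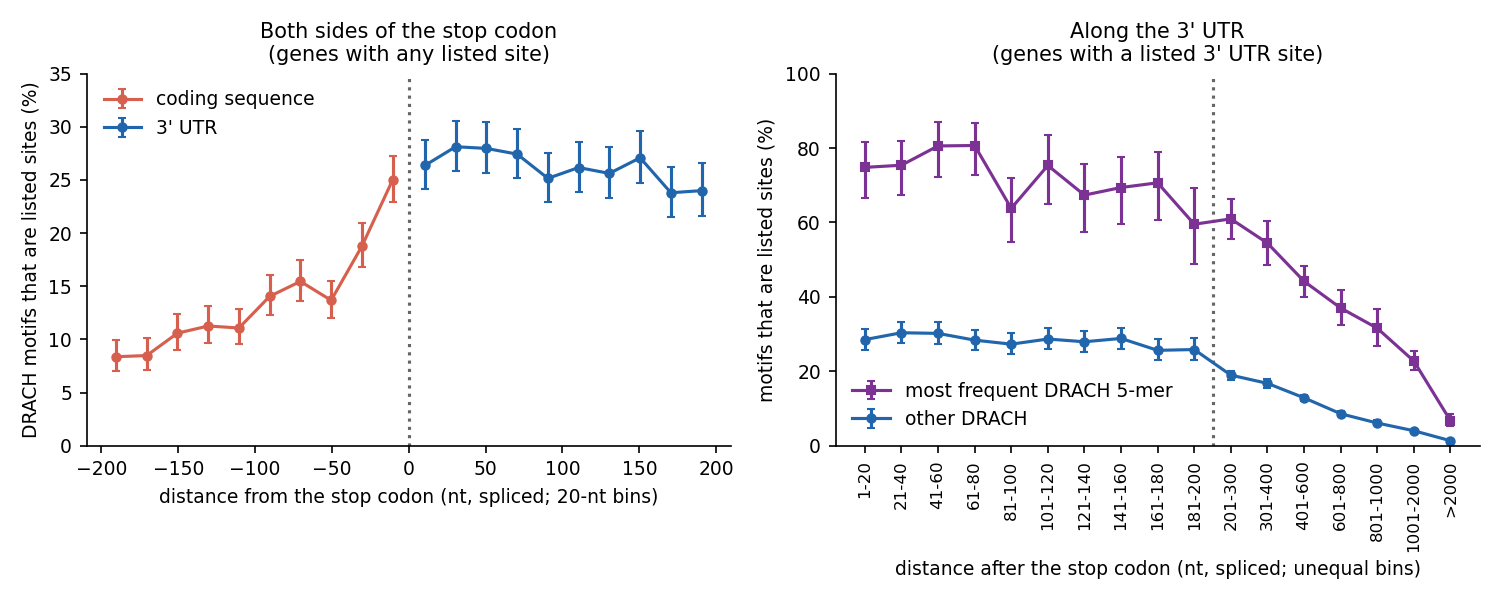
Share of DRACH motifs that were listed sites (y axes, percent, with 95% Wilson intervals) by spliced distance from the stop codon (x axes, nt). On the left, both sides of the stop codon in genes with any listed site, where the coding bins climb from 8.38% to 25% and the 3' UTR bins stay between 23.8% and 28.1%. On the right, bins of unequal width along the 3' UTR for GGACT, the most frequent 5-mer (purple), and the other DRACH motifs (blue), with the 200 nt edge dotted and GGACT above the others in each bin.

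Most host genes carried more than 1 of these sites. A single member was found in 1005 genes, 2 in 615, 3 in 322, 4 in 119, 5 in 39, 6 in 4 and 7 in 2. The 486 genes with at least 3 (23.1% of host genes) held 1675 members, or 42.8% of all. For 456 host genes (21.7%) the window held every listed site of the transcript, whereas 1081 host genes also had sites farther in the 3' UTR and 787 also had coding sites in the last 200 nt before the stop codon.

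Neighbouring members of a gene were often close together. The 1804 neighbouring pairs had a median gap of 37 nt (quartiles 16 and 66.3), and 550 pairs (30.5%) were at most 20 nt apart. The DRACH motifs available in these windows were themselves dense, with a median gap of 26 nt. The number of motifs on offer differed between windows, and all genes compared had a listed 3' UTR site. Of genes with 1 DRACH motif in the window, 36.1% had it listed, and of genes with 9 or more, 91.5% had at least 1 listed. The share of motifs listed was 36.1% (29.8 to 42.9) in the former and 26.4% (22.9 to 30.2) in the latter. A window in which every motif was listed was found for 49 of the 1691 host genes with at least 3 motifs.

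CDC42EP4, an effector of the small GTPase CDC42, and IER3, an immediate early gene induced by stress and growth factors, had the most members, with 7 each. In CDC42EP4 the sites lay 6, 66, 98, 118, 125, 141 and 171 nt after the stop codon. Their scores were 0.878, 0.585, 0.904, 0.926, 0.905, 0.881 and 0.883, so that the site at TGACC stood below the other 6. The lowest and highest scores in IER3 were 0.571 and 0.90 around a median of 0.681, and the sites at GGACT (0.887) and GAACT (0.90) stood above the rest. CDC42EP4 had 17 listed sites in its whole transcript and IER3 had 10.

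TEX264, a receptor for autophagy of the endoplasmic reticulum, had 6 members between 39 and 193 nt with scores from 0.582 to 0.944. These were all its 3' UTR sites, in a 3' UTR of 307 nt. RRP1, a factor of ribosomal RNA processing, had 6 members, and only 1 of its 7 listed sites lay elsewhere. PSRC1, a microtubule-associated protein of the spindle, had 6 members between 57 and 197 nt (scores 0.675 to 0.867), although its stop codon ends only 4 nt after the last exon junction. FIZ1, a zinc finger protein, had 6 members as well, all between 43 and 137 nt, with a median score of 0.764.

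MICALL2, a RAB effector at cell junctions, had 5 members, and all of them were at GGACT, with scores of 0.861, 0.881, 0.899, 0.931 and 0.877. Its 3' UTR is 237 nt long and held 11 DRACH motifs in the window, of which the 5 were listed. KRT80, a keratin of the epithelial cytoskeleton, had the highest score among these 10 genes, 0.974 at 49 nt, and others of 0.738, 0.954, 0.787 and 0.923. MARCHF9, a membrane-bound ubiquitin ligase, had 5 of its 7 window motifs listed, the first of them 1 nt after the stop codon. IL4R, a cytokine receptor chain, had 5 members with scores from 0.741 to 0.927 among 24 listed sites in all.

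**Figure D2:**
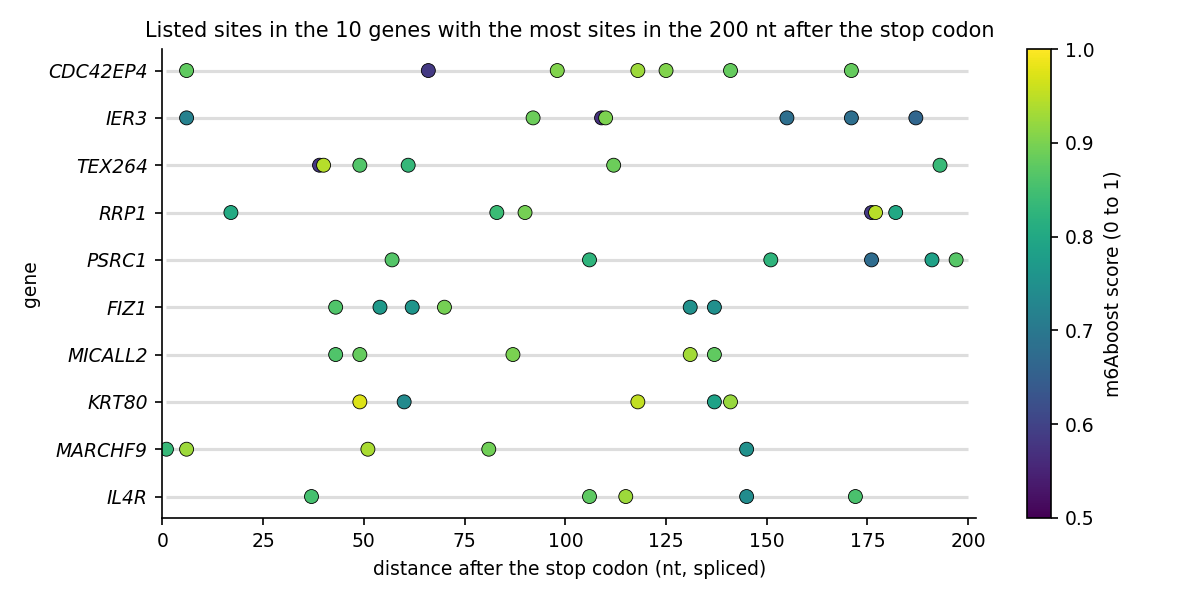
Position of each listed site (points) in the 200 nt after the stop codon (x axis, nt, spliced) in the 10 genes with the most of these sites (y axis), coloured by the m6Aboost score from 0.5 to 1. CDC42EP4 and IER3 have 7 points each, and pairs of touching points in IER3, TEX264 and RRP1 are sites 1 nt apart with unequal scores.

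The length of the 3' UTR was compared between host genes and others by value. In host genes its median was 859 nt (quartiles 433 and 1886), against 1456 nt (846 and 2398) in the 620 genes whose listed 3' UTR sites all lay beyond the window and 1091 nt (396 and 2453) in all 18817 canonical multi-exon coding transcripts. A site of a short 3' UTR has little room to lie elsewhere, so the share of 3' UTR sites that were members depends on length by construction. It was 79.3% for 3' UTRs of 201 to 500 nt, 31.9% for 1001 to 2000 nt and 27.4% above 4000 nt.

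The share of motifs listed depends on length less directly, although a gene entered only with a listed 3' UTR site, which in a short 3' UTR lies in the window more readily. In the window it was 33.1% (28.6 to 37.8) for 3' UTRs of at most 200 nt, 37.8% (35.8 to 39.8) for 201 to 500 nt, 32.9% (31.1 to 34.7) for 501 to 1000 nt, 31.5% (29.7 to 33.3) for 1001 to 2000 nt, 29.1% (27.2 to 31.2) for 2001 to 4000 nt and 27.9% (24.7 to 31.3) above 4000 nt. Beyond the window it was 13.8%, 16.9%, 11.9%, 6.59% and 2.92% in the classes from 201 nt upward. The odds ratio between window and remainder was therefore lowest for 3' UTRs of 501 to 1000 nt, at 2.67, and highest above 4000 nt, at 12.3. Member scores did not follow length, with medians between 0.805 and 0.820 in the 6 classes.

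RNF25, a ubiquitin ligase, had the shortest 3' UTR of all host genes, 65 nt, with 1 site 5 nt after the stop codon (score 0.850). It was followed by GSTP1, a glutathione transferase of detoxification, with 76 nt and 1 site at 12 nt (0.745), and SNRPD2, a core protein of spliceosomal snRNPs, with 93 nt and 1 site at 23 nt (0.692). At the other end stood PEX26, a peroxisome biogenesis factor, with an annotated 3' UTR of 17321 nt, CCDC85C with 15056 nt and EPN1, an endocytic adaptor, with 14177 nt. CCDC85C had 4 of its 8 listed 3' UTR sites in the window and EPN1 both of its 2, whereas PEX26 had 1 of 4. Whether these annotated ends are the ones used in C643 cells was not tested.

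The last exon junction lies upstream of the window in most of these genes, and motifs close to it were listed less often. Among genes with the stop codon in the last of several exons, window motifs within 50 nt of the junction were listed in 16 of 109 cases (14.7%, 9.24 to 22.5). At 51 to 100 nt from the junction the share was 26.0% (22.2 to 30.2), at the following 50 nt 31.3% (28.5 to 34.2), and more than 150 nt away it lay between 33.3% and 35.4%. The interval of the first class lay below those of all classes more than 100 nt away. Where the stop codon itself ended at most 50 nt behind the junction, motifs 1 to 50 nt after the stop codon were listed at 20.8% (16.2 to 26.3) and those in the second 100 nt of the window at 29.7% (25.8 to 33.9). Where it ended 201 to 400 nt behind the junction the order was the opposite, 44.3% (224 of 506 motifs) against 32.2% (290 of 901). Within 100 nt of a junction lay 193 members (4.94%), but also only 838 of the 10670 window motifs. Of these motifs 21.5% were listed, against 33.5% of window motifs farther from a junction. Without motifs within 100 nt of a junction the odds ratio between window and remainder was 4.19 (3.94 to 4.46).

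**Figure D3:**
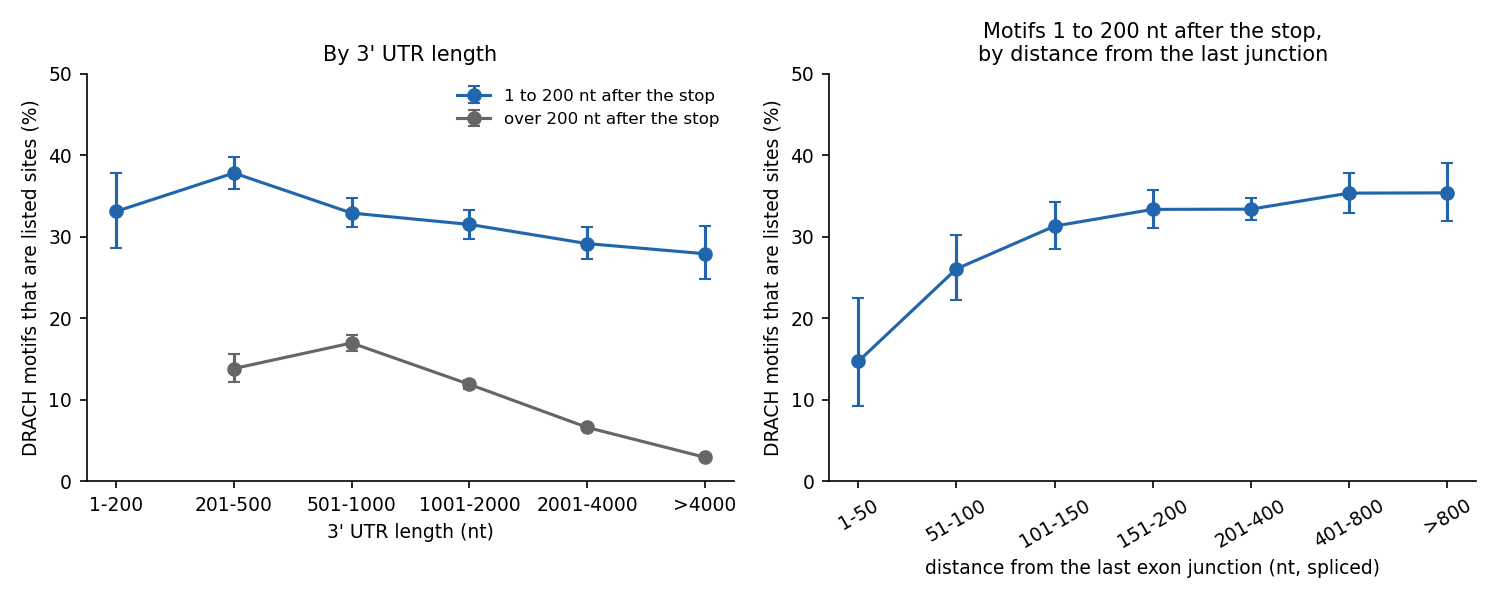
Share of DRACH motifs that were listed sites (y axes, percent, with 95% Wilson intervals). On the left by length of the 3' UTR (x axis, nt), where motifs 1 to 200 nt after the stop codon (blue) stay between 27.9% and 37.8% and farther motifs (grey) fall to 2.92%. On the right, motifs 1 to 200 nt after the stop codon by distance from the last exon junction (x axis, nt), where the share climbs from 14.7% in the first 50 nt to 35.4%.

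Of the members, 3474 (88.8%, 87.8 to 89.8) lay at DRACH and 436 did not. Farther in the 3' UTR 87.8% of sites lay at DRACH. Within the 1081 genes with both kinds of site the share at DRACH gave an odds ratio of 0.968 (0.814 to 1.15, Cochran-Mantel-Haenszel chi-squared test, p = 0.741, adjusted p = 0.741), so no difference was called and the interval allows either direction. Among sites scoring at least 0.7 the odds ratio was lower, 0.738 (0.547 to 0.996, chi-squared p = 0.054), and no difference was called there either. GGACT was the most frequent pentamer, with 760 members. It was followed by GGACA with 510, GGACC with 450, AGACT with 421 and GAACT with 381, and together these 5 made up 64.5% of the members.

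For 17 of the 18 DRACH pentamers a larger share was listed in the window than farther away. The exception was TAACC, with 0 of 191 motifs listed in the window (Wilson upper bound 1.97%) and 2 of 1697 farther away. GGACT was listed at 72.2% (69.4 to 74.8) of its 1053 occurrences in the window and at 28.9% (27.5 to 30.3) of those farther away. For GAACT the shares were 67.9% and 18.9%, for AGACT 60.4% and 16.9%, for GGACA 48.5% and 16.6% and for GGACC 37.6% and 12.02%. Odds ratios within genes could be estimated for 16 of the 18 DRACH pentamers. All 16 were above 1, from 1.75 for TGACC to 8.98 for GAACT, and the interval lay above 1 for 14. The exceptions were TGACC (0.760 to 4.02) and AAACC (0.594 to 62.1).

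Among DRACH sites of the 990 genes that had them on both sides of the 200 nt mark, GGACT made up 19.6% of members and 21.7% of farther sites. The odds ratio was 0.829 (0.709 to 0.969, Cochran-Mantel-Haenszel chi-squared test, p = 0.0188, adjusted p = 0.0225). With a window of 100 nt this difference was not called (0.951, chi-squared p = 0.606).

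**Figure D4:**
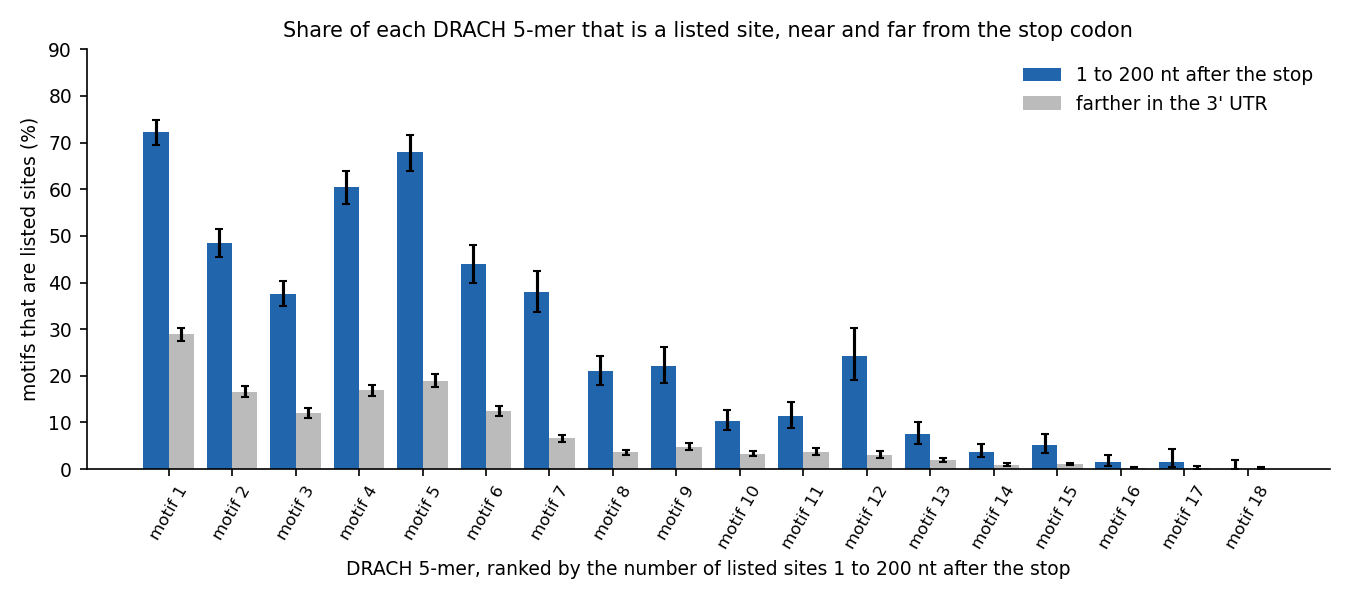
Share of the occurrences of each DRACH 5-mer that were listed sites (y axis, percent, with 95% Wilson intervals), 1 to 200 nt after the stop codon (blue) and farther in the 3' UTR (grey). The 5-mers are ranked along the x axis by their number of listed sites in the window, so that motif 1 is GGACT and motifs 2 to 5 are the other 4 pentamers named in the text in the same order, and in each of these the blue bar is above 37% and the grey bar below 29%.

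Even at GGACT 292 of the window motifs with a complete 21 nt were not listed. The bases around such motifs differed somewhat, with a median GC content of the 16 flanking bases of 62.5% at listed and 56.3% at unlisted GGACT. Where the flanks held less than 40% GC, 56.8% (48.3 to 65.0) of 132 GGACT motifs were listed, against 77.3% (71.4 to 82.3) of 225 at 40 to 55% GC, 74.6% (70.8 to 78.1) of 532 at 55 to 70% and 69.9% (62.5 to 76.5) of 163 above that. The share was thus lowest in the class with the least GC and did not climb steadily with GC. These surrounding bases were an input of the classifier, and their part in the difference was not tested.

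The 436 members outside DRACH used 45 pentamers. The 5 most frequent were GGACG with 105, GGATT with 49, GTACT with 42, GCACT with 31 and AGACG with 23. The highest scored member at each of them is shown, with the pentamer in capitals, since these depart from DRACH in different ways.
SNRNP25 (chr16:57229-57249, plus strand): cacagaaaGGACGttgtggtg
LRPAP1 (chr4:3512834-3512854, minus strand): ggcaggaaGGATTgtttctgg
DCTN3 (chr9:34613650-34613670, minus strand): acctctctGTACTctgggctc
SZRD1 (chr1:16395298-16395318, plus strand): aaccccatGCACTgtgacctc
MOB2 (chr11:1470123-1470143, minus strand): gtgcaaagAGACGgtggtgtg
GGACG and AGACG have a G in place of the last DRACH base, GTACT and GCACT depart at the base before the A, and GGATT lacks the C after it. The site in SNRNP25, a component of the minor spliceosome, scored 0.940 and the site in SZRD1 scored 0.624.

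Scores differed between these pentamers. Members at GGACG had a median score of 0.803, close to the 0.824 of all DRACH members, whereas GTACT had 0.697, GGATT 0.631 and GCACT 0.531. A C followed the A in 304 of the 436 (69.7%), and the 132 without it had a median of 0.559. In 24 cases the non-DRACH member lay 1 nt before a listed DRACH site, as in TEX264, RRP1 and IER3. The DRACH site had the higher score in all 24, with medians of 0.941 and 0.553. The remaining 412 non-DRACH members had a median score of 0.640.

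The median score of all members was 0.810 (quartiles 0.712 and 0.882), and 18.7% (17.5 to 19.97) scored at least 0.9. Sites farther in the 3' UTR had a median of 0.795 with 15.6% (14.7 to 16.5) at that level, and coding sites in the last 200 nt before the stop codon had 0.732 with 5.89%. At GGACT the members' median was 0.887. The region of a site and its sequence were inputs of the classifier, so a score is not a measure of how much of the mRNA is methylated.

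For scores within genes, each member was paired with each compared site of its gene. Members counted as higher in a gene if they won more pairs than they lost, and as tied if both numbers were equal. By this count the members scored higher than farther sites in 533 genes and lower in 395, with 153 tied (57.4% of untied genes, 54.2 to 60.6, exact two-sided sign test, p = 6.64e-06, adjusted p = 1.33e-05). This was not called among sites scoring at least 0.7 (52.4%, exact p = 0.204). Against the coding sites before the stop codon the members scored higher in 459 genes and lower in 195, with 133 tied (70.2% of untied genes, 66.6 to 73.6, exact two-sided sign test, p = 1.81e-25, adjusted p = 5.42e-25). At GGACT sites alone the members scored higher in 77.5% of untied genes (66.5 to 85.6, exact p = 3.75e-06). Members and these coding sites differ by definition in their region on the canonical transcript, and region was an input of the classifier. The sign tests against coding sites therefore cannot tell a difference between the sites from the classifier's use of region.

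**Figure D5:**
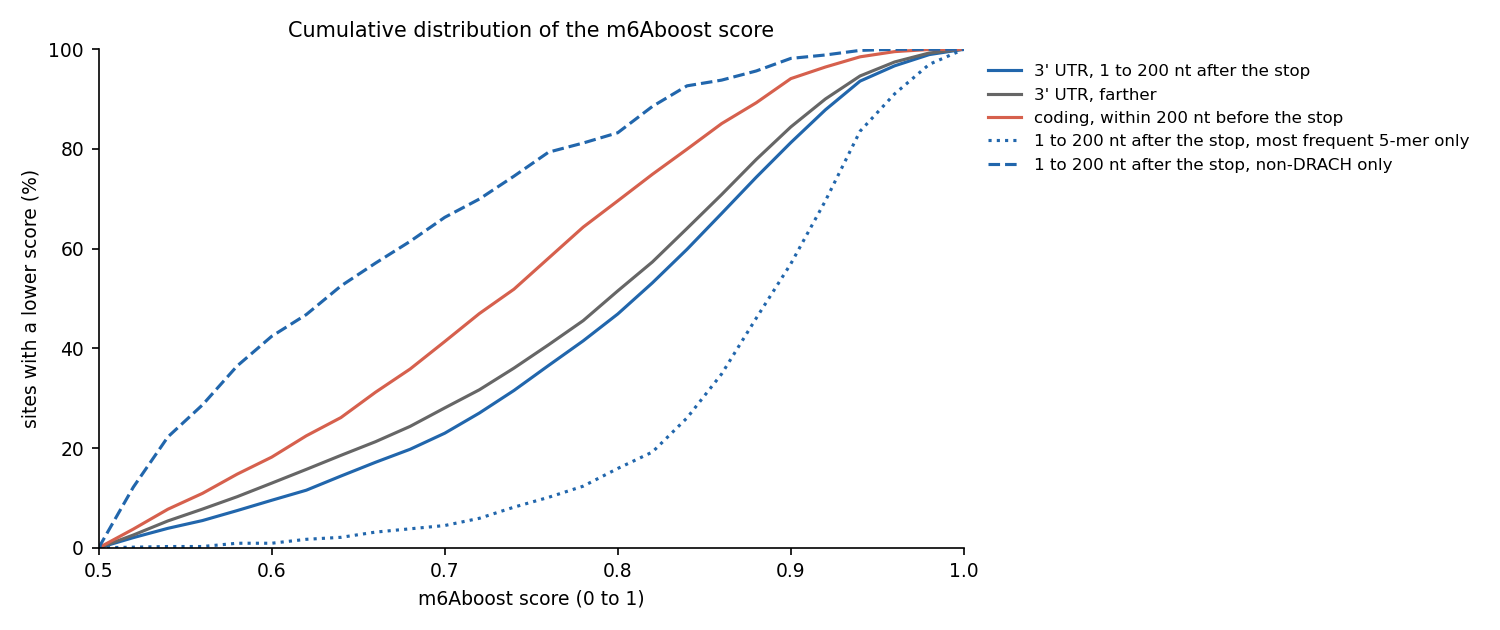
Cumulative distribution of the m6Aboost score (x axis, 0.5 to 1; y axis, percent of sites with a lower score). Sites 1 to 200 nt after the stop codon (solid blue) run below and to the right of farther 3' UTR sites (grey) and coding sites in the last 200 nt before the stop codon (red), with medians of 0.810, 0.795 and 0.732; members at GGACT (dotted) have a median of 0.887 and members outside DRACH (dashed) 0.633.

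A score of exactly 1 was given to 12 members among 25 such sites in the whole list. By chromosome order the first 5 were at GGACT in ID3, an inhibitor of basic helix-loop-helix transcription factors, RTKN and BRI3, and at GAACT in POC1A, a centriole protein, and MSC, a basic helix-loop-helix transcription factor. Their distances from the stop codon ran from 91 to 187 nt. The 5 lowest scores, 0.501 to 0.503, were all outside DRACH. They lay in PLPP2, a lipid phosphatase, at GCACT, in DEXI at CGACT, in UBL4A, a factor for inserting tail-anchored membrane proteins, at GAATT, in NACC1 at CTACT and in PPP2R1A, the scaffold subunit of protein phosphatase 2A, at TCACT.

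The stop codon itself differed between host genes and the annotation. TGA ended the reading frame in 60.2% of host genes and in 49.4% of all canonical multi-exon coding transcripts, TAG in 24.9% and 22.4%, and TAA in 14.9% and 28.2%. The same bias was present in all 2726 genes with a listed 3' UTR site, of which 59.0% used TGA and 15.6% TAA. The share of window motifs listed was 32.9% (31.8 to 34.1) after TGA, 34.3% (32.4 to 36.2) after TAG and 28.8% (26.7 to 30.9) after TAA, whose interval lay below the others. At 1 or 2 nt after the stop codon, where stop codon bases belong to the pentamer, there were 65 members, 62 of them at DRACH. Of the 200 DRACH motifs at these positions 31% (25 to 37.7) were listed.

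Which kinds of genes carried sites just behind the stop codon was described with lists of related genes. Of all 3639 genes with a listed site, 2106 (57.9%) were host genes, and each list is given against that share without a test. Only genes placed on multi-exon canonical transcripts were counted. Several lists lost genes by this rule, among them 5 of 17 immediate early genes and 6 of 19 WNT receptors and regulators. Whether a gene without a site is unmodified or too weakly expressed cannot be told apart here.

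Rapidly induced regulators were described first. Of the 12 immediate early genes placed, 7 had a listed site and all 7 were host genes. They had 24 of 64 sites as members (37.5%, against 22.4% over all genes), led by IER3 with 7 and CCN2, a matricellular growth regulator, with 5. MYC had 3. Of 7 stress response genes and mTOR inhibitors 6 were host genes, with 14 of 50 sites as members. DDIT4 had 3 members 1, 50 and 86 nt after the stop codon with scores of 0.962, 0.966 and 0.969, and CHAC1 and TRIB3, targets of the integrated stress response, had 3 each. All 5 ID, HES and BHLHE regulators with a site had 1 member each, among them ID3 with its score of 1. These were 5 of the 27 sites of this list (18.5%), below the share over all genes. Of 9 MAPK feedback genes 5 were host genes, and DUSP1, which dephosphorylates MAP kinases, had 3 members scored 0.859, 0.883 and 0.856. Small lists gave 2 of 4 Kruppel-like factors, KLF16 and KLF2, and 1 of 2 SOCS genes, SOCS3, which restrains cytokine signalling and had 2 members scored 0.611 and 0.809.

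Genes of the cell surface and the matrix were described next. Host genes were 12 of 15 heparan and chondroitin sulfate genes with a site, although 30 of the 193 sites of this list were members (15.5%). NDST1, which deacetylates and sulfates heparan chains, had 5 members with scores from 0.734 to 0.919 among 42 listed sites, and B4GALT7, which builds the linker of these chains, also had 5. Among integrins, plexins and semaphorins 11 of 13 were host genes, with 27 of 155 sites as members (17.4%), and PLXND1, a semaphorin receptor, had 4 members scored 0.730 to 0.863 between 85 and 112 nt. Solute carriers reached 42 of 57 with 79 of 360 sites as members (21.9%). SLC29A1, a nucleoside transporter, had 4 members scored 0.811, 0.914, 0.871 and 0.877. Of 12 collagens and laminins with a site 7 were host genes, but only 11 of their 122 sites were members (9.02%). COL5A1 had 3 of these.

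Genes of translation, respiration and growth signalling were taken next. In the list of cytoplasmic ribosomal protein genes, only 3 of the 31 with a site were host genes. However, only 4 of the 31 had a listed 3' UTR site. RPL13 held 5 of the 8 members in this list, with scores from 0.526 to 0.832. The list left out RPL36AL, a host gene shown above. Respiratory chain subunits reached 7 of 23, and 9 of the 23 had a listed 3' UTR site. Among them UQCR10, a subunit of the cytochrome bc1 complex, had 2 members scored 0.875 and 0.874. Of 7 TGF-beta pathway genes 2 were host genes and 3 had a 3' UTR site. LTBP3, which binds latent TGF-beta, had 3 members and SMAD3 had 2. WNT receptors and regulators reached 1 of 6, the only 1 with a 3' UTR site, with a single member in DVL1 scored 0.714. None of the 5 D cyclins and CDK inhibitors with a site, which held 17 sites in all, had a member, and 3 had a 3' UTR site. Over all genes with a listed 3' UTR site, 77.3% were host genes.

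Nuclear regulators came last. Host genes were 35 of 66 numbered ZNF genes with a site. ZNF865 had 5 members from 60 to 156 nt after the stop codon, scored 0.864, 0.818, 0.785, 0.876 and 0.721, and 5 of its 6 window motifs were listed. Among histone-modifying enzymes 7 of 16 were host genes, and NSD2, a histone lysine methyltransferase, had 4 members scored 0.545 to 0.824. None of the 8 m6A writer complex genes placed had a listed site, and 1 further writer gene was not placed. Of the 12 readers and erasers 1 gene had a listed site, without a member.

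Markers of the cell type were checked in the same way. None of the 8 thyroid markers on multi-exon canonical transcripts held a listed site, and of the epithelial markers 1 of 9 did, without a member. Of 12 mesenchymal markers 4 held sites, and FN1, which encodes fibronectin, had 1 member 55 nt after the stop codon with a score of 0.697. The labelled thyroid origin could thus not be checked against sites in thyroid genes.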

How the data were processed

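Sites came from miCLIP2 of 1 group, C643 cells, with 3 biological replicates in 4 libraries. Per the submitters' processing notes the tools included STAR 2.7.3a, UMI-tools 1.0.0, SAMtools 1.9 and bedtools 2.27.1 on GRCh38.p12 (hg38). The authors kept unique reads, removed duplicates by molecular identifiers, called peaks per replicate, retained those found in at least 2 replicates and classified peaks at A with m6Aboost from sequence, transcript region, C-to-T transitions and signal strength. The deposited score is a fraction from 0 to 1, and the list gives no counts, rejected peaks or replicate values. Peaks need reads, so expression shapes the list.

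Sites were placed on Ensembl canonical transcripts of GENCODE release 44, later than the authors' annotation on the same assembly, and coordinates are 1-based. Of 18789 sites, 17450 lay on such transcripts with at least 2 exons. Sequences were read from the release's transcripts. A motif or site shared by overlapping genes was counted once. Listing and motif shares were compared by Mantel-Haenszel odds ratios stratified by gene, and scores by exact sign tests over genes. All tests were two-sided at 0.05 with Benjamini-Hochberg adjustment over 6 tests, and shares have 95% Wilson intervals. The scripts were tested on simulated data. Members, gene lists and rules were chosen with earlier results of these data known. Named genes were the 10 with the most members (ties by the sum of scores), the 5 highest scored, 5 lowest scored and 5 closest members (ties by score), the 3 longest and 3 shortest 3' UTRs, the 5 leading DRACH and non-DRACH pentamers and the leading gene of each list. CCN2, MYC, CHAC1, TRIB3, KLF2, B4GALT7, SMAD3 and TRNP1 were named after their values were seen. Alternatives changed the score threshold, transcript, window, overlap with other transcripts, motifs and junction distance. Python 3.11.15, numpy 2.4.6, scipy 1.17.1 and pandas 2.3.3 were used.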

Additional observations from a re-analysis of the deposited data

How the results depend on the processing

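Of 37 alternative values, 32 kept their direction and their side of the threshold or, for the number of members, stayed within 1.5 times. The number of members was 2115 with a window of 100 nt, and between 3011 (scores of at least 0.7) and 5035 (300 nt) otherwise. The odds ratio for listing in the window against the remainder ranged from 1.96 to 5.33 over its alternatives, the lowest against the 200 nt after the window alone, which was chosen after seeing the data, and the highest for GGACT motifs. The difference between the first and the second 100 nt of the window was not called with the longest transcript (1.10, chi-squared p = 0.0548) or at GGACT motifs alone (1.31, chi-squared p = 0.572), where fewer motifs were compared. The lower GGACT share of members was not called with a window of 100 nt (0.951, chi-squared p = 0.606), and the higher score of members than of farther sites was not called at scores of at least 0.7 (52.4%, exact p = 0.204). The cause was not tested for these. No replicate could be left out of a pooled list. No pairing of samples or replicates was possible because the list holds 1 group and no value per replicate, so sites were compared within genes only. The depth behind each site is unknown, so an unlisted motif may be unmodified or too thinly covered, and transcript ends used by these cells may differ from the annotation.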

Other observations

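Just outside the window, 61 listed sites in 61 genes lay on the stop codon itself, each on its last base. The codons were completed to TGACT in 30 sites, TAACT in 13, TGACA and TGACC in 8 each, and TAACA and TGACG in 1 each. The 3 with the highest scores are shown with the stop codon in capitals, whose A is the site.
TBL2 (chr7:73570497-73570517, minus strand): tgaagaagTGActctgggagg
IER3 (chr6:30743926-30743946, minus strand): ccgccttcTAActgtgactcc
TRIM11 (chr1:228394695-228394715, minus strand): ctccccagTGActcgggccct
TBL2 scored 0.923, IER3, which also had 7 sites behind the stop codon, 0.885, and TRIM11, a ubiquitin ligase, 0.877. The median score of the 61 sites was 0.692, and 38 of the 61 genes also had sites in the 200 nt that follow.

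In genes with a listed 3' UTR site, 45 of 441 DRACH motifs with their A in the stop codon were listed (10.2%, 7.71 to 13.4), against 15.8% (14.3 to 17.3) of 2347 motifs of the same pentamers in the following 200 nt. By pentamer the shares were 32.8% (22.8 to 44.7) against 43.98% (39.97 to 48.07) for TGACT, 25.7% (14.2 to 42.1) against 24.2% (19.1 to 30.2) for TAACT, 6.90% against 7.42% for TGACA and 3.70% against 3.70% for TGACC. The intervals overlapped for each of these 4 pentamers. A stop codon that ends in A can only form pentamers that begin with TGA or TAA. Genes entered only with a listed 3' UTR site, which a listed window motif can supply and a listed stop codon motif cannot. The window shares are thus raised by this choice, and the comparison cannot show that stop codon motifs are listed less often. These shares were compared after the values were seen, with no test.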
